A study of Mus musculus with 2 samples.

Results

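The endoplasmic reticulum (ER) chaperone and folding genes described here are Hspa5, Hsp90b1, Pdia3, Pdia4, Pdia6, Calr, Canx, Dnajb9, Dnajc3 and Herpud1. They were taken by name: every gene probe of the array whose gene name equalled 1 of these 10 was used, which gave 12 of 55681 gene probes, with 2 probes each for Pdia6 and Dnajb9 and 1 for each of the other 8 genes. All 12 were well above background in both channels on both arrays and entered the test of 22266 probes. RNA came from pancreatic islets of RbΔK7 knock-in mice, whose retinoblastoma protein (Rb) resists phosphorylation, and of control mice, 2 samples each. Strain, age, sex and the number of mutant alleles were not given in the sources used here. Islets of both genotypes were freed with collagenase, picked under a microscope and frozen, so the samples are whole islets with whatever other pancreatic cells came along. Each of 2 two-colour Agilent arrays, which share a slide, took up 1 mutant sample (Cy5) and 1 control sample (Cy3): array 1 the samples of replicate 1, array 2 those of replicate 2. Dyes were not exchanged, so for a single probe genotype and dye cannot be told apart.

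Secreted proteins enter the ER as unfolded chains. Hspa5, an Hsp70 also called BiP, and Hsp90b1, an Hsp90 also called Grp94, hold them until they fold, protein disulfide isomerases join their cysteines, and the lectins Calr (calreticulin) and Canx (calnexin) retain glycoproteins. When unfolded protein builds up, the sensors Ern1, Atf6 and Eif2ak3 start the unfolded protein response, which raises transcription of these genes. Beta cells make proinsulin and acinar cells make digestive enzymes in large amounts, and both keep a large ER.

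The promoters of most of these genes carry the ER stress response element (ERSE), the site through which that response is known to act on Hspa5. In the 250 bases before the RefSeq transcription start (GRCm38.p6), ERSE, written as CCAAT, then 9 bases of any kind, then CCACG, was found on either strand for 6 of the 10 genes, against 0.113% of 32851 promoters. With its last base left free, a form that includes every match of the first, it was found for 8 of 10, against 0.314% of all promoters. The shorter element ERSE-II, written as ATTGG, then 1 base of any kind, then CCACG, was found for Herpud1 and for 0.0304% of all promoters. The plain box CCAAT lies within ERSE and, as its reverse complement ATTGG, within ERSE-II. It occurred in all 10 and in 33.8% of all promoters, and Dnajb9 held this alone. A match is a run of letters and not a shown binding site. Hsp90b1 held 2 exact ERSE matches, and the farther one, 194 to 212 bases upstream and read forward, is not printed. The 9 windows of 60 bases that hold these elements are printed 5′ to 3′ on the gene's strand because they are what most of these promoters share. Capitals mark the element, which reads as its reverse complement in Hsp90b1, Pdia4 and Calr:
Hspa5 (chr2:34772004-34772063, plus strand): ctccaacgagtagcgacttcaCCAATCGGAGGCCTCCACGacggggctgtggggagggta
Hsp90b1 (chr10:86705513-86705572, minus strand): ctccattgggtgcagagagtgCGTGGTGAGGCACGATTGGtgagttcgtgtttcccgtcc
Pdia6 (chr12:17266470-17266529, plus strand): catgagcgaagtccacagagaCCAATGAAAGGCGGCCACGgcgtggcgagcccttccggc
Calr (chr8:84847055-84847114, minus strand): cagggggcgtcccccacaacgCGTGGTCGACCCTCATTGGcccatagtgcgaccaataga
Canx (chr11:50325780-50325839, minus strand): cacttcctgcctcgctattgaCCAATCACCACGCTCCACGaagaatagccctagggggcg
Dnajc3 (chr14:118937806-118937865, plus strand): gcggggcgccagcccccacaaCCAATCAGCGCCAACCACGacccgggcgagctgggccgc
Pdia3 (last base free; chr2:121413842-121413901, plus strand): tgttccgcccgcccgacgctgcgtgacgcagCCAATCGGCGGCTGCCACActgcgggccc
Pdia4 (last base free; chr6:47813582-47813641, minus strand): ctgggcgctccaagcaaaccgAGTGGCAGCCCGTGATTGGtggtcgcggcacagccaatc
Herpud1 (ERSE-II; chr8:94386352-94386411, plus strand): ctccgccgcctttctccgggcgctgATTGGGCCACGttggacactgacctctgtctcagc

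No ER chaperone probe passed the test between RbΔK7 and control islets, and apart from Herpud1 no log2 ratio was larger in size than 0.55 on either array. Herpud1 and Dnajb9 were set aside after the values were seen. The brighter probes of the other 8 genes had log2 ratios of mutant over control from -0.09 to 0.36 on array 1 and from 0.23 to 0.55 on array 2. The 5th to 95th percentile of all tested probes ran from -0.38 to 0.48 on array 1 and from -0.49 to 0.60 on array 2. Herpud1, an ER membrane protein that helps to send misfolded proteins to the proteasome, stood apart with 0.04 and -1.38. By limma with Benjamini-Hochberg adjustment over all 22266 probes, 0 of the 12 probes were higher (0.368% of all probes were) and 0 lower (0.0135% were), with adjusted p from 0.339 to 0.958. At an unadjusted p under 0.05 there were 2 of 12, Hsp90b1 and Pdia4, both higher, beside 8.16% of all probes higher and 3.19% lower (11.3% together). A test on 2 pairs leaves 1 residual degree of freedom a probe, so these values do not show that the genes were alike in both genotypes.

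**Figure D1:**
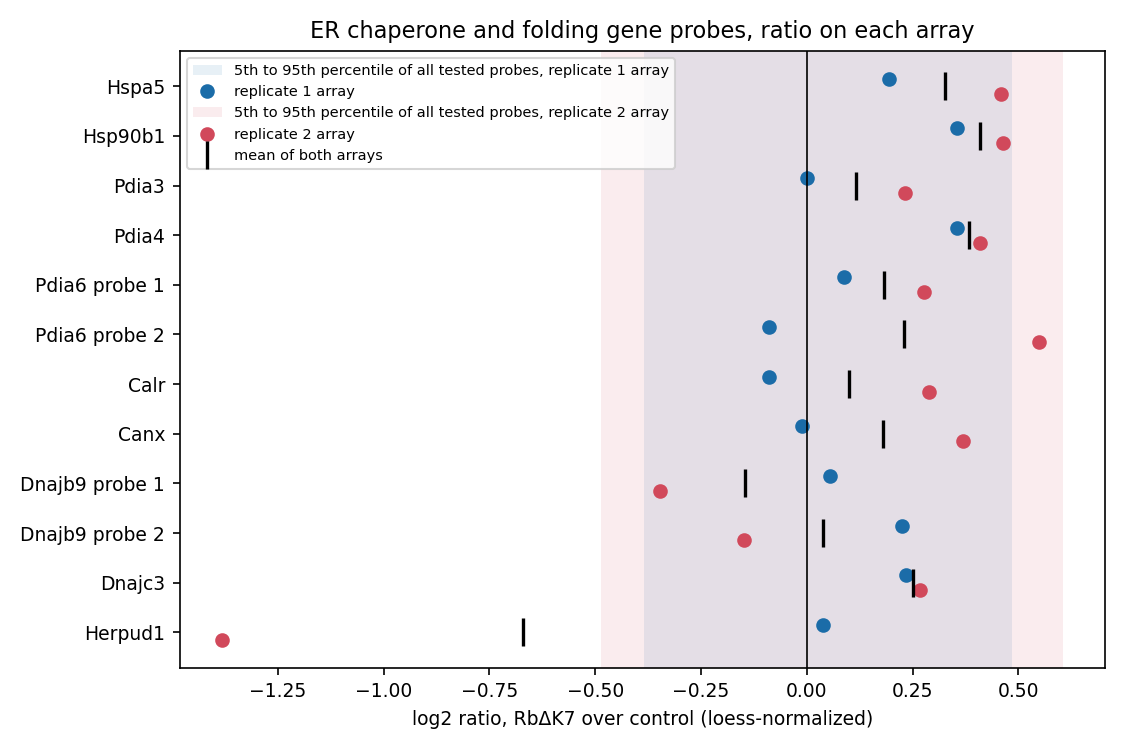
Log2 ratio of RbΔK7 over control islets (x axis) for the 12 ER chaperone probes (y axis) on array 1 (replicate 1, blue) and array 2 (replicate 2, red), with a bar at their mean and shaded bands from the 5th to the 95th percentile of all tested probes. Probe 2 of Pdia6 and probe 1 of Dnajb9 are the brighter ones. Herpud1 on array 2, at -1.38, is the 1 point outside its array's band.

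Hspa5, the Hsp70 that binds unfolded chains and holds the stress sensors inactive, had log2 levels of 13.81 and 14.38 in RbΔK7 islets and 13.62 and 13.92 in control islets (replicates 1 and 2, normalized across channels and arrays). Within each pair the mutant sample was the higher, and the control sample of replicate 2 lay above the mutant sample of replicate 1, so the groups overlapped. The log2 ratios were 0.19 and 0.46, averaging 0.33 ± 0.19 (SD, n = 2; limma adjusted p = 0.473), with a 95% interval from -0.02 to 0.68. Hsp90b1, the ER's Hsp90, which completes the folding of a narrower set of clients, had levels of 12.92 and 13.47 in RbΔK7 islets and 12.57 and 13.01 in control islets. Its ratios were 0.35 and 0.46 (mean 0.41 ± 0.077, SD, n = 2; limma adjusted p = 0.339, 95% interval 0.08 to 0.74). The intervals, here and below, are not adjusted for the number of probes tested. The probes lie on mm9 chromosome 2 from 34631913 to 34631972 for Hspa5 and on chromosome 10 from 86153770 to 86153829 for Hsp90b1. Where within the transcripts the probes lie was not analysed here.

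The protein disulfide isomerases form and rearrange disulfide bonds, which proinsulin needs. The probe of Pdia3 lies on mm9 chromosome 2 from 121263343 to 121263402 and that of Pdia4 on chromosome 6 from 47746516 to 47746575. Pdia4, an isomerase with several thioredoxin-like domains, had levels of 9.50 and 10.03 in RbΔK7 islets and 9.15 and 9.62 in control islets. Its ratios of 0.36 and 0.41 were nearly equal (mean 0.38 ± 0.038, SD, n = 2; limma adjusted p = 0.370, 95% interval 0.06 to 0.71). Pdia3, the isomerase that works with calnexin and calreticulin on glycoproteins, had 11.12 and 11.45 in RbΔK7 islets and 11.12 and 11.22 in control islets. The samples of replicate 1 did not separate, with a ratio of 0.00, and the ratio on array 2 was 0.23 (mean 0.12 ± 0.16, SD, n = 2; limma adjusted p = 0.827, 95% interval -0.23 to 0.46). Pdia6, which also tempers signalling by Ern1, was read by a pair of probes on mm9 chromosome 12. The brighter probe (17291070 to 17291129) had levels of 14.00 and 14.63 in RbΔK7 islets and 14.09 and 14.08 in control islets, so the mutant sample of replicate 2 stood above the other 3 samples. Its ratios were -0.09 and 0.55 and those of the dimmer probe (17291323 to 17291382) 0.09 and 0.28, which disagree in sign on array 1 (means 0.23 ± 0.45 and 0.18 ± 0.13, SD, n = 2; limma adjusted p = 0.714 and 0.689, 95% intervals -0.23 to 0.69 and -0.15 to 0.52).

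The lectin chaperones bind newly made glycoproteins, calreticulin in the lumen and calnexin in the membrane. Their probes lie on mm9 chromosome 8 from 87366192 to 87366251 (Calr) and chromosome 11 from 50108047 to 50108106 (Canx). Calr had levels of 11.18 and 11.73 in RbΔK7 islets and 11.27 and 11.44 in control islets. Canx had 11.52 and 11.97 in RbΔK7 islets and 11.53 and 11.60 in control islets. In both genes the mutant sample of replicate 2 was the highest of the 4, and the other 3 lay within a narrower range. Ratios were -0.09 and 0.29 for Calr (mean 0.10 ± 0.27, SD, n = 2; limma adjusted p = 0.870, 95% interval -0.28 to 0.48) and -0.01 and 0.37 for Canx (mean 0.18 ± 0.27, SD, n = 2; limma adjusted p = 0.735, 95% interval -0.20 to 0.55), so the difference between the pairs exceeded the mean in each.

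**Figure D2:**
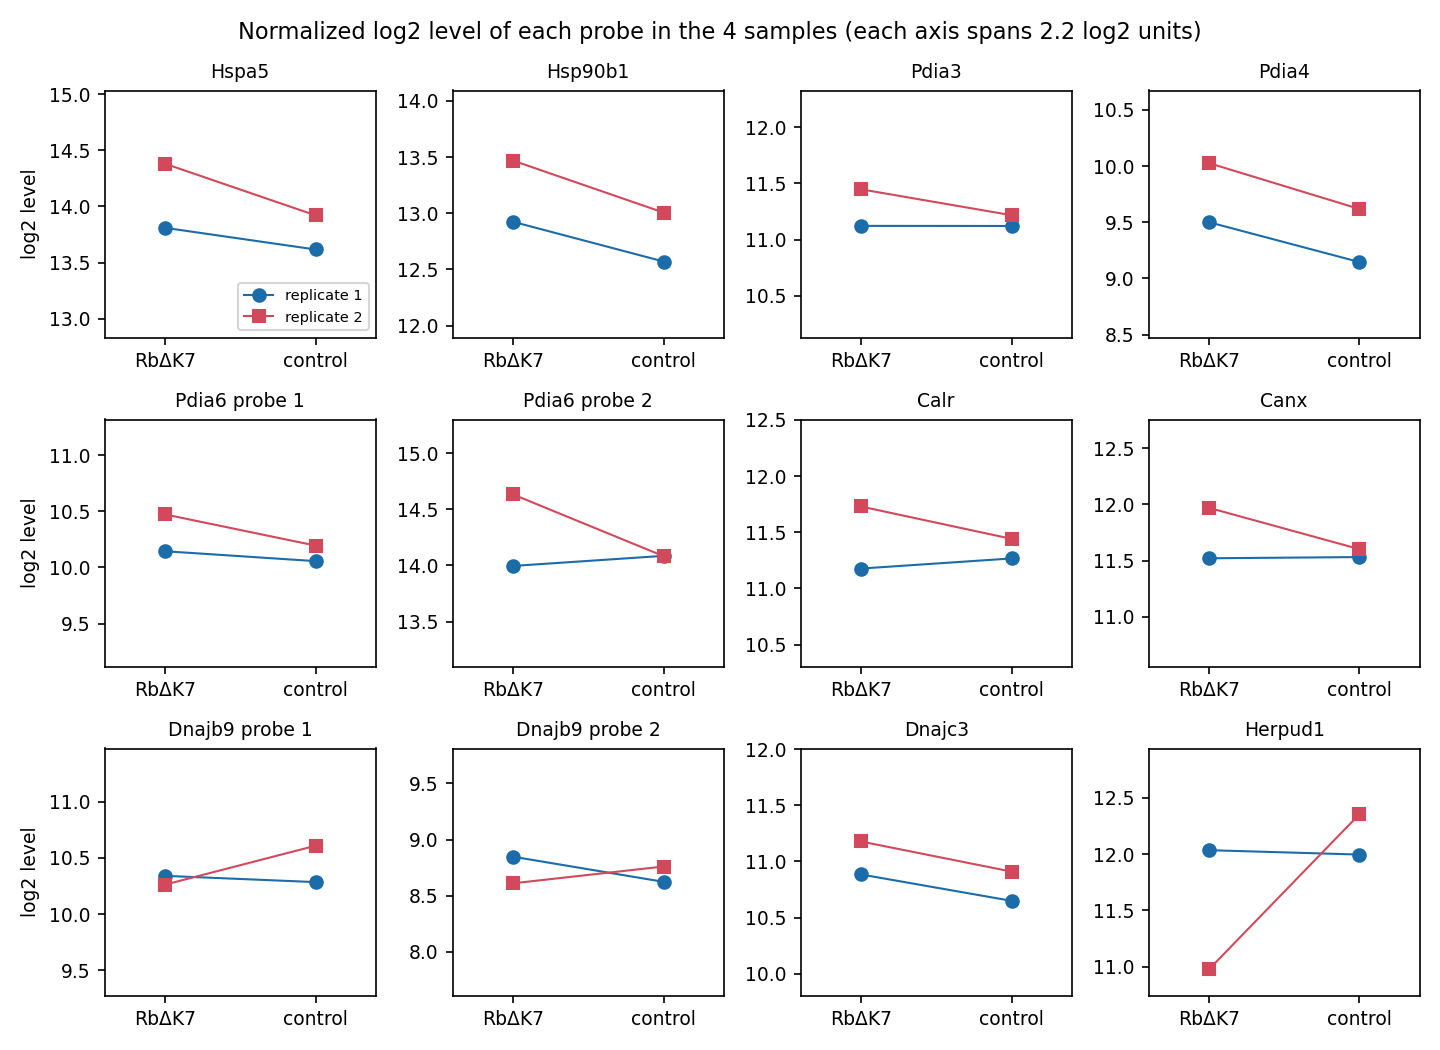
Normalized log2 level (y axis) of each of the 12 ER chaperone probes in RbΔK7 and control islets (x axis); a line joins the 2 samples of 1 array, replicate 1 in blue and replicate 2 in red. Herpud1 has 3 samples between 12.00 and 12.36 and the mutant sample of replicate 2 at 10.97.

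The J-domain proteins Dnajc3 and Dnajb9 deliver clients to Hspa5. Dnajc3, also known as p58IPK (mm9 chromosome 14, 119378131 to 119378190), had levels of 10.88 and 11.18 in RbΔK7 islets and 10.65 and 10.91 in control islets, and its ratios of 0.24 and 0.27 differed least among the 12 probes (mean 0.25 ± 0.023, SD, n = 2; limma adjusted p = 0.553, 95% interval -0.07 to 0.58). Dnajb9, also known as ERdj4, had ratios below 0 on array 2. Its brighter probe (mm9 chromosome 12, 45307313 to 45307372) had 10.34 and 10.26 in RbΔK7 islets and 10.29 and 10.61 in control islets. Its ratios were 0.06 and -0.35 and those of the dimmer probe (45308272 to 45308331) 0.22 and -0.15, so both probes had the higher ratio on array 1. Neither probe passed (means -0.15 ± 0.28 and 0.04 ± 0.26, SD, n = 2; limma adjusted p = 0.800 and 0.958, 95% intervals -0.53 to 0.24 and -0.34 to 0.41).

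Herpud1 had levels of 12.04 and 10.97 in RbΔK7 islets and 12.00 and 12.36 in control islets (probe on mm9 chromosome 8, 96919117 to 96919176). The mutant sample of replicate 2 was thus the low one, and the other 3 samples lay close together. On array 2 Herpud1 was 2.61-fold lower in the mutant sample (-0.23 on the log2 scale with median centring of all gene spots), and 197 of the 22266 tested probes (0.885%) had a ratio lower still. It was the 1 of 12 chaperone probes with a ratio of -1 or below on array 2, where 1.48% of all tested probes had one, and 0 of 12 did on array 1, beside 0.198%. The deposited p-value of Feature Extraction, which covers technical error within 1 array, was 4.56e-09 for Herpud1 on array 2 and 0.945 on array 1. Over both pairs the mean was -0.67 ± 1.00 (SD, n = 2; limma adjusted p = 0.513, 95% interval -1.46 to 0.12), so the difference between the pairs was larger than the mean, and without replicate 2 the value was 0.04. Herpud1 and Dnajb9 were the genes with a ratio below 0 on array 2, and they are also the genes in which neither form of ERSE was found. This was seen after the values were known and is given as a description.

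Across the 10 genes, on the brighter probe, the median ratios were 0.05 on array 1 and 0.33 on array 2, beside 0.02 and 0.02 for all tested probes. Ratios were above 0 on both arrays for 5 genes, below 0 on both for 0, and opposite for 5, where 32.4% of all tested probes were above 0 on both and 25.3% below. The mean ratio was above 0 for 10 of the 12 probes and for 52.3% of all tested probes. In 9 of the 12 probes the ratio was larger on array 2. Levels also differed between samples of 1 genotype: the mutant sample of replicate 2 was above that of replicate 1 for 9 probes, and the control sample of replicate 2 above that of replicate 1 for 11. The shares of all tested probes for these comparisons of replicates were not computed, so the counts do not show a trait of the chaperone genes. For no probe did both mutant samples lie above both control samples (21.9% of all tested probes did) or below them (15.6% did). The deposited Feature Extraction p-value was under 0.05 for 0 of the 12 probes on array 1 and for 5 on array 2, beside 24.6% and 27.6% of all tested probes (first spot of each).

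Bright probes such as these depend on how the dyes are balanced. Loess at each brightness gave the values above. With each array's gene spots centred on their median in its place, the medians of all tested probes were 0.39 and 0.84, 10 of the 12 chaperone probes were higher by limma and 0 lower, beside 29.9% and 0.319% of all tested probes. With the tested probes themselves centred, a setting added once the values were known, the 10 genes had a median of 0.49. Hsp90b1 then rose by 0.73 (limma adjusted p = 0.0440), 1 of 12 probes beside 2.63% of all tested probes, 0 were lower (0.885% of all were), and Herpud1 had 0.34 and -1.07. With all gene spots centred, Herpud1 had 0.73 and -0.23, a mean of 0.25, so both its sign over the arrays and its size on array 2 depend on the scaling. Agilent's processed signals gave means of 0.32 for Hspa5, 0.34 for Hsp90b1 and -0.70 for Herpud1, none of which passed (limma adjusted p from 0.618 to 0.675).

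**Figure D3:**
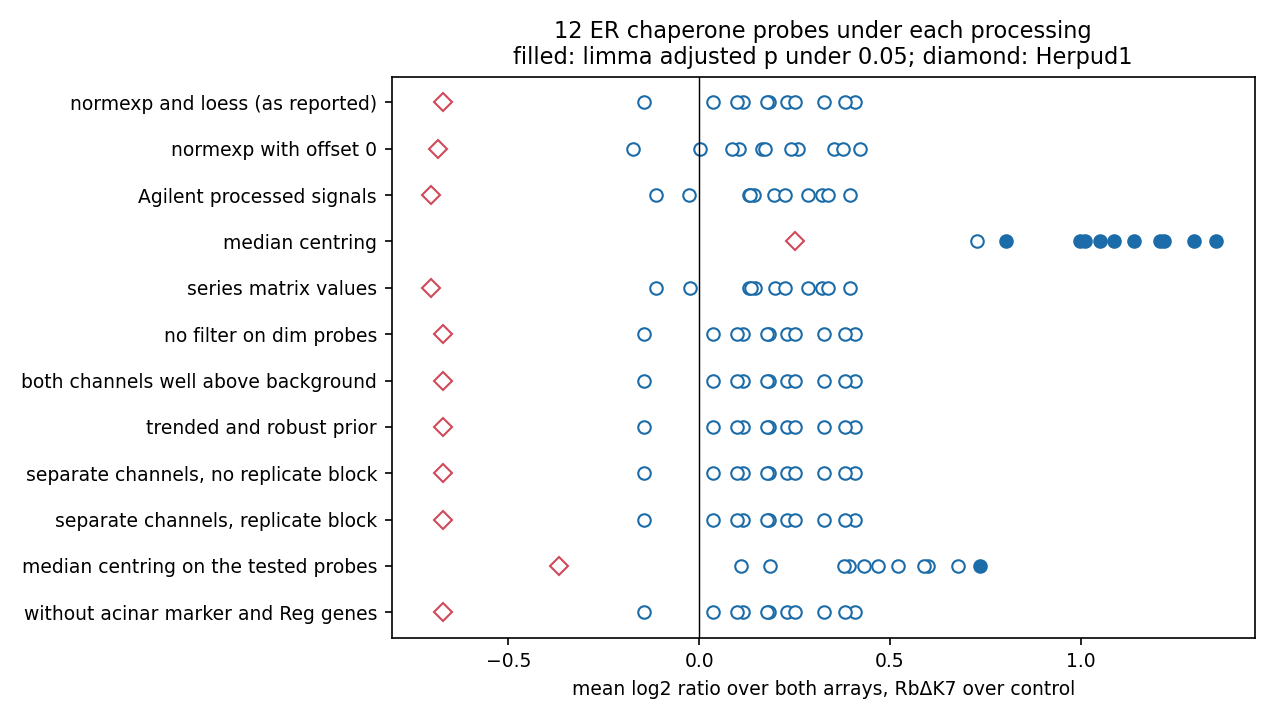
Mean log2 ratio over both arrays (x axis) of the 12 ER chaperone probes under each processing (y axis); filled symbols have a limma adjusted p under 0.05, and diamonds are Herpud1. Filled points occur under the 2 kinds of median centring, 10 and 1 of 12, and Herpud1 lies below the other probes in every row.

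Genes that work beside these chaperones were described from 5 further lists, none of whose members passed the test. Over all tested probes, 32.4% had ratios above 0 on both arrays, 25.3% below on both, and 11.3% an unadjusted p under 0.05 by limma. In the list of other ER folding genes 0 of 30 were higher or lower over all probes (4 at an unadjusted p under 0.05), 12 were above 0 on both arrays and 5 below, and the medians were 0.09 and 0.02. Dnajc10, a reductase that opens disulfides for degradation (0.33 and 0.74), and Creld2, a stress-induced ER protein (0.41 and 0.67), had its highest means. Hyou1, the exchange factor of Hspa5, had 0.29 and 0.20, and its partner J-protein Dnajb11 had 0.33 and -0.17. Sdf2l1, which binds Hspa5 complexes, had 0.34 and -0.07, and Manf, a secreted stress protein that protects beta cells, -0.12 and -0.22. P4hb, the archetypal disulfide isomerase, had 0.10 and -0.15, and the oxidase gene Ero1lb, the form of pancreatic islets, -0.13 and 0.38. The relative Ero1l was not well above background in either control sample and entered the test through the mutant channel alone, so no fold is given for it. The lowest means were those of Pdia2, the isomerase of the exocrine pancreas (0.07 and -3.34), and the ER peroxidase gene Prdx4 (0.29 and -1.68).

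The list of stress sensors and factors had medians of -0.13 and -0.26, with 1 of 14 genes above 0 on both arrays and 8 below. In this list 0 passed (3 at an unadjusted p under 0.05). The shares of all tested probes were 32.4% above 0 on both arrays, 25.3% below and 11.3% at that unadjusted p. Atf4, the transcription factor translated when Eif2ak3 is active, had ratios of -0.38 and -0.51 (limma adjusted p = 0.310), and its target Ddit3, the gene of CHOP, -0.44 and -0.42 (limma adjusted p = 0.311). The sensors had -0.04 and -0.48 for Ern1, 0.01 and -0.31 for Eif2ak3, and 0.01 and 0.19 for Atf6. Xbp1, whose mRNA is spliced by Ern1, had -0.06 and -0.40, and Creb3l2, a factor of the Atf6 kind, -0.03 and 0.25. The array gives the total Xbp1 message, and splicing was not measured. With the array's gene spots centred on their median, Atf4, Ddit3, Ern1, Eif2ak3 and Xbp1 had means above 0, from 0.08 to 0.72, in the setting that puts all tested probes at 0.39 and 0.84.

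For degradation genes, which pull misfolded proteins back to the cytosol, the medians over 22 genes were 0.08 and -0.04. Among them 0 passed (1 at an unadjusted p under 0.05), with 7 above 0 on both arrays and 3 below. Beside this list and those that follow, 32.4% of all tested probes were above 0 on both arrays, 25.3% below and 11.3% at that unadjusted p. The ubiquitin ligase gene Syvn1 (-0.14 and -0.89), its adaptor Sel1l (0.03 and -0.82) and the channel protein gene Derl3 (0.83 and -0.61) encode parts of the Hrd1 complex in which Herpud1 also acts. These 3 were singled out after their values were seen. Ratios on array 2 varied in the rest of the list. Edem1 had -0.65, Edem2 -0.51 and Ube2j1 -0.47. Derl1 had -0.04 and Derl2 0.01, both relatives of Derl3. The lectin gene Os9 had -0.02, its relative Erlec1 0.00, Aup1 -0.14 and Herpud2, the relative of Herpud1, -0.02. Nploc4, a cofactor of the extracting ATPase, had ratios of 0.25 and 0.24. For translocon and signal peptidase genes the medians over 16 genes were -0.03 and -0.03, with 4 above 0 on both arrays, 7 below and 0 past the test (0 also at an unadjusted p under 0.05). Among them the channel genes Sec61a1 (-0.22 and -0.39) and Sec61b (-0.36 and -0.21) were lowest, and the translocon-associated Ssr3 (0.35 and 0.21) and Ssr1 (0.08 and 0.33) highest. For glycosylation genes the medians over 12 genes were -0.01 and 0.02, with 3 above 0 on both arrays, 3 below and 0 past the test (1 at an unadjusted p under 0.05). Their extremes were Stt3b, the catalytic subunit that adds glycans (0.40 and 0.46), and the glucosidase subunit gene Prkcsh (0.06 and 0.29), against the oligosaccharyltransferase subunit gene Krtcap2 (-0.21 and -0.20) and the glucosidase gene Mogs (0.05 and -0.29).

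**Figure D4:**
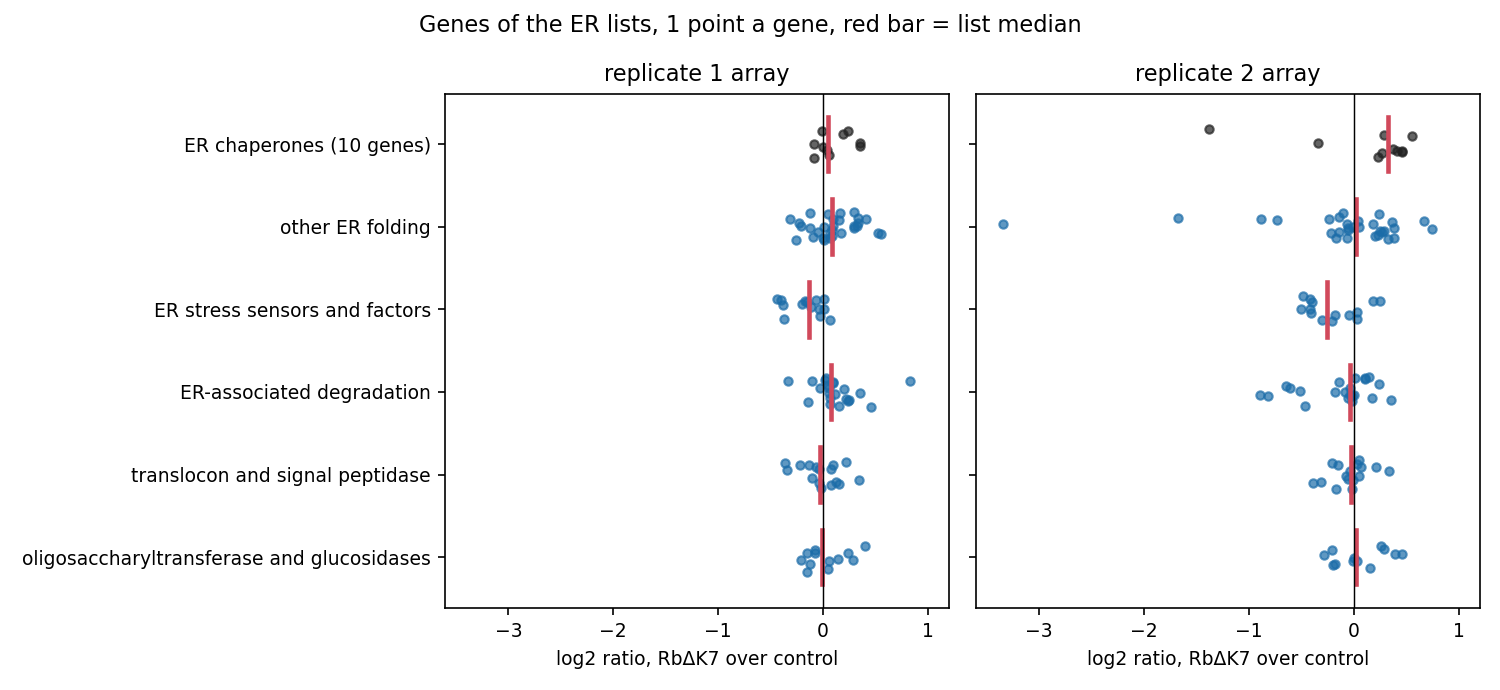
Log2 ratio of RbΔK7 over control islets (x axis) for each gene of the 6 ER lists (y axis), 1 panel an array; each point is 1 gene and the red bar is the list's median. On array 2 the chaperone median of 0.33 is the highest, and the far points are Pdia2 at -3.34, Prdx4 at -1.68 and Herpud1 at -1.38.

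Markers of several cell types also differed between the samples. All 18 islet endocrine markers were well above background in both channels on both arrays, as the label of the tissue asks. The insulin genes had ratios of -0.15 and 1.25 (Ins1) and -0.57 and 0.71 (Ins2) and the glucagon gene Gcg 1.45 and -0.30, with list medians of -0.12 and 0.24 and a log2 summed level of 19.78 and 20.22 in RbΔK7 islets and 19.65 and 19.54 in control islets. Acinar markers had medians of 0.40 and -5.10: 25 of 28 were above 0 on array 1 and 0 of 28 on array 2. Their log2 summed level was 21.18 and 17.17 in RbΔK7 islets and 20.77 and 21.97 in control islets, and 27 of 28 were well above background in every channel, so acinar RNA was present in all 4 samples and least in the mutant sample of replicate 2. Herpud1, Syvn1, Sel1l, Pdia2 and Prdx4 were also lowest in that sample, as were Dnajb9, Xbp1, Atf4, Ddit3, Ern1 and Eif2ak3. Syvn1 had nearly equal levels in the mutant samples, 11.69 and 11.63. Hspa5, Hsp90b1, Pdia3, Pdia4, Pdia6 (both probes), Calr, Canx and Dnajc3 were highest in the mutant sample of replicate 2. These genes were named after their values were seen, and the shares of all tested probes lowest or highest there were not computed. Derl3 was not lowest there: its levels were 10.83 and 10.67 in RbΔK7 islets and 10.00 and 11.28 in control islets. Amy2a5, the amylase gene, had 0.48 and -6.91, and Cpa1, a carboxypeptidase gene, 0.35 and -4.04. Stromal markers were above 0 on both arrays for 15 of 15 genes (32.4% of all tested probes were), 7 of which passed as higher (0.368% of all), with medians of 1.32 and 1.07 and Col1a1 at 2.66 and 2.13 (limma adjusted p = 0.0261). Medians were 0.53 and 0.40 for 9 duct markers (2 passed, higher) and 0.42 and 0.53 for 10 endothelial markers (1 passed, higher). For 6 leukocyte markers they were 0.06 and 0.26 (0 passed). The plasma cell markers Igj and Mzb1 were not tested, so these medians do not cover plasma cells. For general stress and early response genes the medians over 9 genes were -0.70 and -0.38, and 1 passed as lower (0.0135% of all), Egr1, with ratios of -1.13 and -1.39 (limma adjusted p = 0.0445). The part of these cells and of the early response in the ER gene values was not tested, and in whole islets fewer cells of a type and less RNA per cell cannot be told apart.

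**Figure D5:**
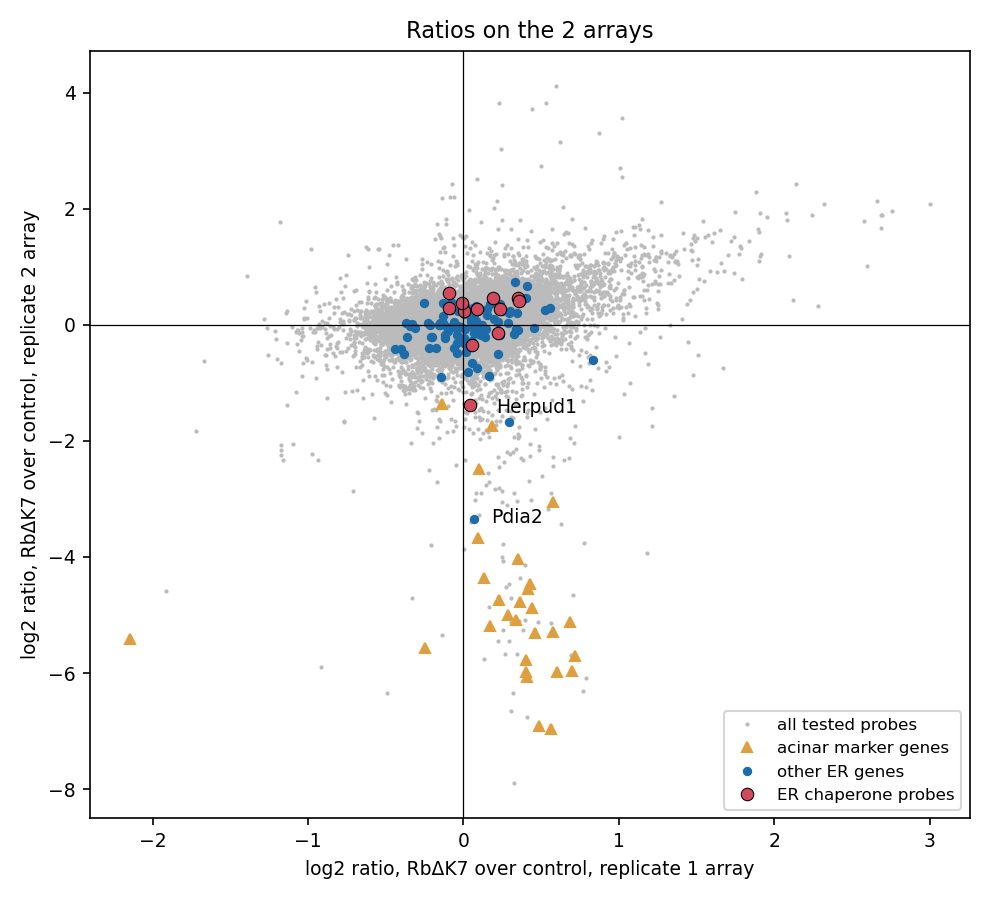
Log2 ratio of RbΔK7 over control on array 1 (x axis) against array 2 (y axis) for all 22266 tested probes (grey), with the 12 ER chaperone probes in red, genes of the other 5 ER lists in blue and acinar markers as triangles. Herpud1 (0.04 and -1.38) and Pdia2 (0.07 and -3.34) lie low on array 2 and near 0 on array 1. Acinar markers had medians of 0.40 and -5.10, and a link of these genes to acinar RNA was not tested.

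Among other genes that carry the exact ERSE, 11 were tested. Their median ratios were 0.01 and 0.01, and 3 were above 0 on both arrays (32.4% of all tested probes were). By limma 0 passed, and 2 had an unadjusted p under 0.05 (11.3% of all tested probes did). They included Creld2 and Ero1lb from the folding list and Derl3 and Syvn1 from the degradation list, with ratios on array 2 from -0.89 to 0.67. The element was thus found in genes with ratios on either side of 0. The genes most like the mean profile of the 10 chaperone genes over the 4 samples, by Euclidean distance of centred log2 levels among 11883 genes outside the lists, were Klhl30, Pnpla6, Ppm1f, Reep3 and P2rx2, at distances from 0.018 to 0.028. The chaperone genes themselves lay from 0.11 (Pdia3) to 1.23 (Herpud1) from that mean, which includes Herpud1. Klhl30 and the genes named with it had ratios from 0.07 to 0.13 on array 1 and from 0.11 to 0.15 on array 2. On array 2 the median of the chaperone genes was 0.33, so these genes are near the mean profile and lower there than most chaperone genes.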

How the data were processed

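The submitters' processing notes name Agilent Feature Extraction 10.7.3.1, and probes are placed on mm9 in the headers. Per the file headers, each spot's deposited intensity is given as a mean signal, a median local background and a processed signal corrected for background and dye. The deposited log10 ratios (red, mutant, over green, control) and their p-values come from the same software, and the series matrix holds the same ratios (largest difference 0, column medians 0 and 0), so its scale and direction are known.

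With limma 3.58.1 in R 4.3.3, mean signals were corrected by normexp (offset 50), log2 ratios normalized by loess (span 0.3, control spots at weight 0), and spots of a probe averaged. Control spots and 4 non-uniform spots an array were left out, and 0 gene spots were saturated. The offset draws dim ratios towards 0. Probes well above background in either channel on both arrays, in at least 50% of their spots, were tested against 0 with lmFit and eBayes (1 residual degree of freedom, 4.90 from the prior), two-sided, adjusted over 22266 probes, threshold 0.05. The ratio within an array is the pair of samples. The test was run on simulated data. Channel levels used Aquantile scaling. The number of arrays limits the precision. The p-values weigh the spread between 2 pairs, described as independently harvested, together with a prior spread drawn from all tested probes. In the mutant channel 41.0% and 48.2% of gene spots were well above background, in the control channel 37.0% and 38.1%.

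The brightest probe stood for a gene with several. Names came from the files, or from RefSeq (GRCm38.p6) by accession for 26762 probes, and promoters from RefSeq. All 10 genes had a promoter sequence. The genes and lists were chosen with earlier results of these data known. Named genes were the 10 members, and in each other ER list any past the threshold, the 2 highest and 2 lowest means and a fixed set; the grouping of Hrd1 complex genes and the other degradation genes set beside them were chosen after their values were seen. Not tested, and so not in the counts, were Vimp, Try10, Cftr, Ptprc, Cd79b, Igj, Mzb1 and Hspa1b. One gene that the rule names is not reported here.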

Additional observations from a re-analysis of the deposited data

How the results depend on the processing

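The count of ER chaperone probes past the test was 0 in both directions under 9 of 11 other settings. It was 10 higher with median centring of all gene spots and 1 higher with median centring on the tested probes (chosen after the data were seen), where the median of the 10 genes was 1.11 and 0.49 against 0.20 as reported. Left out 1 array at a time, that median ran from 0.05 to 0.33, and the single array left allows no test. With the array as a replicate block in a fit of separate channels, 0 chaperone probes passed and the counts over all probes were 82 higher and 3 lower, as reported. That fit gave each chaperone probe the same limma adjusted p as reported, so it is no separate check. Series matrix values and Agilent's processed signals come from the same software (Hspa5 means of 0.3211 and 0.3217) and are not separate checks either. With no replicate block the counts over all probes were 0 and 0. Over all probes, 82 were higher and 3 lower as reported, 0 and 0 also with an offset of 0, with Agilent's processed signals and with the series matrix values, 6660 and 71 with median centring, 585 and 197 with centring on the tested probes, 324 and 32 without a filter on dim probes, 517 and 49 with a trended and robust prior, and 167 and 10 without acinar marker and Reg genes. At an unadjusted p under 0.05 the settings with 0 gave 2469, 2351, 2355 and, with no replicate block, 1497 probes, against 2527. Means that changed sign with median centring were those of Herpud1 (0.25), the brighter Dnajb9 probe (0.73), Manf (0.71), P4hb (0.90), Prdx4 (0.17), Atf4 (0.53), Ddit3 (0.084), Eif2ak3 (0.64), Ern1 (0.55), Xbp1 (0.72), Sel1l (0.39), Syvn1 (0.40), Sec61a1 (0.62), Sec61b (0.68), Krtcap2 (0.71) and Mogs (0.78). With centring on the tested probes they were those of the brighter Dnajb9 probe (0.11), Ero1l (-0.31), Manf (0.10), P4hb (0.28), Eif2ak3 (0.024), Xbp1 (0.10), Sec61b (0.057), Krtcap2 (0.09) and Mogs (0.16). With Agilent's processed signals and the series matrix the dimmer Dnajb9 probe (-0.027 and -0.024), P4hb (0.026 and 0.026) and Ins2 (-0.058 and -0.062) changed sign. The cause of these shifts was not tested. All 12 chaperone probes were well above background in both channels on both arrays.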
